A study of Drosophila melanogaster with 4 samples.

Results

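The Drosophila Hox genes stand in 2 clusters on chromosome arm 3R, and the HDAC3 peaks at all 8 of them were collected here from 4 peak lists. The Antennapedia complex holds lab, pb, Dfd, Scr and Antp, and the bithorax complex holds Ubx, abd-A and Abd-B. A peak was assigned to a Hox gene when it overlapped the gene body or lay within 5000 bp of it, which joined 55 of the 6258 peaks of the first w1118 list with the rat antibody to a Hox gene. It joined 14 of 3645 peaks of the w1118 list with the rabbit antibody, and in the second round 0 of 102 peaks of the HDAC3 shRNA list and 6 of 1142 peaks of the w1118 list, both with the rat antibody. The same rule was applied to all 13945 protein-coding genes of the chromosome arms.

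HDAC3 occupancy was mapped by CUT&Tag, in which an antibody on chromatin recruits a transposase that cuts and tags the DNA beside it, in nuclei pooled from whole embryos collected 2 to 4 h after egg laying. HDAC3 shRNA embryos (label tub-GAL4/shRNA HDAC3) came from mothers that express a short hairpin RNA against HDAC3 in the germline under a maternal tubulin GAL4 driver, and they were set against embryos of the laboratory strain w1118, which carry neither the driver nor the hairpin. The first round used w1118 embryos with a rat and a rabbit antibody against HDAC3, and the second round, labelled second replicate, used HDAC3 shRNA and w1118 embryos with the rat antibody. Every such combination was sequenced as 1 library, so no difference below has a replicate check, p-values were not computed, and the 95% intervals cover counting error over peaks alone.

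The lists give a position, a fold enrichment over local background and −log10 p and q for each peak, and no read numbers, so depth is unknown and fold was ranked only within a list. Median fold was 3.72 in the first rat list and 3.86 in the rabbit list, and 4.65 in the HDAC3 shRNA list against 3.73 in the second w1118 list. Off the chromosome arms lay all but 18 of the 102 HDAC3 shRNA peaks, and 1038 of the 1142 second-round w1118 peaks were on the arms. The lists hold no measure of HDAC3 RNA or protein, so the knockdown itself could not be checked in them.

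Hox genes encode homeodomain transcription factors that give each segment of the body its identity, and their order along the chromosome follows the order of the segments they specify. In the early embryo gap and pair-rule proteins set where each Hox gene starts to be expressed, and Polycomb and Trithorax group proteins later keep the silent and active states through Polycomb response elements, DNA elements rich in sites for GAGA factor and for Pleiohomeotic (Pho). HDAC3 is a histone deacetylase that works with the corepressor SMRTER. Whole embryos hold cells in which a given Hox gene is on and cells in which it is off, and a peak from pooled embryos does not say in which of them HDAC3 sat.

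The sequences under the strongest peaks show the letters on which the comparison of motifs below rests. Each was read from the RefSeq copy of genome release 6, which has the coordinates of dm6, around the centre of the peak, since the lists give no summit, and is printed 5′ to 3′ on the strand of the gene. Capitals mark matches on either strand to GAGAG (GAGA factor, CTCTC on the other strand) or GCCAT (the core of the Pho site, ATGGC on the other strand), and neither CAGGTAG (Zelda) nor AGNNGGCGC (CTCF) was found in these stretches. For pb, Antp, Ubx, abd-A and Abd-B the peak is the strongest that both antibodies gave, and for Dfd, which had no shared peak, it is the strongest with the rat antibody. The strongest shared peaks beside lab and Scr lie over other genes and are described with those genes. Their stretches are not printed, although the Antp peak, which is printed, also lies over a noncoding RNA gene. The lab stretch held 0 GAGAG and 0 GCCAT matches, and the Scr stretch held 0 and 1.
Dfd: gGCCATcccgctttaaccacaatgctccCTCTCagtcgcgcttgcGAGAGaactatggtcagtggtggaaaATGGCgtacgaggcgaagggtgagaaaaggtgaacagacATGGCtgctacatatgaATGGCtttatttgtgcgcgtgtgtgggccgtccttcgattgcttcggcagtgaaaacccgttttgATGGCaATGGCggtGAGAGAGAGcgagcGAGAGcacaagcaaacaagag
Antp: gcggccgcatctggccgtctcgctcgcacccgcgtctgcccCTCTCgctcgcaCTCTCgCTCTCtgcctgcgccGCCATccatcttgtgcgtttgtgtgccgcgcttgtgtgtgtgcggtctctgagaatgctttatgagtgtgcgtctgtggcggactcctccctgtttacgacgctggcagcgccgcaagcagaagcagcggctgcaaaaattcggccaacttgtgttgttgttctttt
Ubx: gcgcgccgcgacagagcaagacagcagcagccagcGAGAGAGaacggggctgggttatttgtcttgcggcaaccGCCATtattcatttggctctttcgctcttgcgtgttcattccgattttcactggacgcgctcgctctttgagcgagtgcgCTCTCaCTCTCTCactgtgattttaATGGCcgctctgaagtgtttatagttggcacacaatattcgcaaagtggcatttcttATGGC
abd-A: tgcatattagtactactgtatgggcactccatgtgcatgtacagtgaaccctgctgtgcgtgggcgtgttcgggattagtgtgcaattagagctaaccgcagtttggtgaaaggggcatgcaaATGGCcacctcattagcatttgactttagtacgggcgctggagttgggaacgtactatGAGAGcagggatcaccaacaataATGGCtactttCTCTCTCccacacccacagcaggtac
Abd-B: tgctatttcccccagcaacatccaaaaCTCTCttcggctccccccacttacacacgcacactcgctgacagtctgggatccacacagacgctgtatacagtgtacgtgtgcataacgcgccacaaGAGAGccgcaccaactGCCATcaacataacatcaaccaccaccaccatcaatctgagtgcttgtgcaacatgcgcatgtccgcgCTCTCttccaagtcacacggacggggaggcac
pb: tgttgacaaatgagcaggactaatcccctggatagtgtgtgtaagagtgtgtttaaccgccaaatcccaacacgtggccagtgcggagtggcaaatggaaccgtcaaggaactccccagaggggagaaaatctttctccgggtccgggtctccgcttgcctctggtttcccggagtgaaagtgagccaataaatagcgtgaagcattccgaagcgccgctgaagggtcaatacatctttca
The Dfd stretch (chr3R:6791547-6791787) ends just short of the Dfd start site and held 6 GAGAG and 6 GCCAT matches. The Antp stretch (chr3R:7000837-7001077), upstream of the gene, held 3 and 1, and the Ubx stretch (chr3R:16702868-16703108), in an intron, held 5 and 3. The abd-A stretch (chr3R:16826301-16826541), inside the gene, held 3 and 2, and the Abd-B stretch (chr3R:16934411-16934651), at a start site, held 3 and 1. The pb stretch (chr3R:6736016-6736256), in an intron, held neither motif, although both antibodies gave this peak. Whether a peak depends on either motif was not tested.

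**Figure D1:**
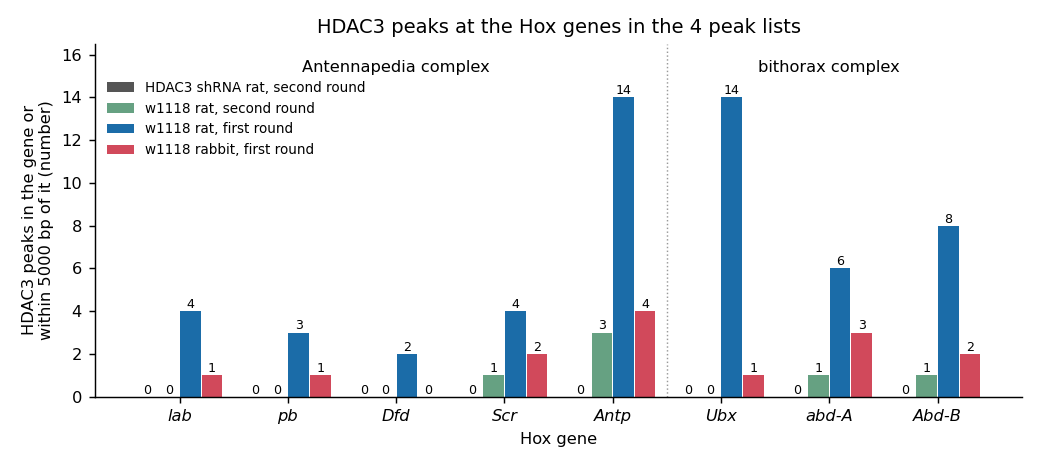
Number of HDAC3 peaks in or within 5000 bp of each Hox gene, 1 bar per peak list, with the number above each bar. Antp and Ubx had 14 peaks each in the first-round rat list, and the HDAC3 shRNA list had none at any of the 8 genes.

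With the rat antibody in the first round, each of the 8 Hox genes had at least 2 peaks. Of all coding genes 58.8% had a peak under the same rule, and of the 1865 coding genes at least as long as Dfd, the shortest Hox gene at 10593 bp, 76.1% had one, so having a peak in this list was common among long genes. The number of peaks separated the Hox genes more. Antp and Ubx, with 14 peaks each, shared place 6 among the 13945 coding genes with 1 other gene, and Abd-B had 8, abd-A 6, lab and Scr 4 each, pb 3 and Dfd 2. Antp and Ubx are also the 2 longest of the 8 (103.0 and 77.8 kb).

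Per length the order changed. abd-A came first with 1.83 peaks per 10 kb of its window, above 97.6% of the long coding genes, followed by Ubx with 1.59 (above 95.2%), lab with 1.47 (93.7%) and Abd-B with 1.45 (93.3%). Antp had 1.24 peaks per 10 kb (87.3%), Scr 1.09 (82.8%), Dfd 0.971 (80%) and pb 0.678 (62.6%), and the median of the long genes was 0.446. In this list all 8 Hox genes were therefore above the median of genes at least as long as Dfd, pb by the least when all peaks count. The value of Scr includes 2 peaks over 7SL RNA genes in its flank, described with that gene. Its density was not recomputed without them.

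The rabbit antibody gave a peak at 7 of the 8 Hox genes, all but Dfd, where 50.6% of all coding genes and 64.9% of the long ones had a peak. Its 14 Hox peaks were spread over Antp (4), abd-A (3), Scr and Abd-B (2 each) and lab, pb and Ubx (1 each). Ubx thus had 14 peaks with the rat antibody and 1 with the rabbit antibody, while abd-A had 6 and 3. Peaks with both antibodies were present at the same 7 genes, against 38.1% of coding genes and 54.4% of long ones. Per length, abd-A had the highest value with the rabbit antibody (0.914 peaks per 10 kb). Its 3 rabbit peaks were weak, with ranks by fold from 3009 to 3409 of 3645. Their −log10 q values were 1.74, 1.62 and 1.61, where the lowest of the list was 1.6. Scr (0.543), lab (0.368), Abd-B (0.363) and Antp (0.354) followed abd-A. The values of pb (0.226), Ubx (0.114) and Dfd (0.0) were below the median of the long genes, 0.275. Among the peaks that both antibodies gave, Ubx (0.114) and Dfd (0.0) were below the median of 0.15. Both rabbit peaks of Scr, which are also its shared peaks, lie over the 7SL RNA genes in its flank. The only rabbit peak of lab, also its shared peak, lies in its flank over the start of twr. Without flanks the rabbit list had a peak at 5 of the 8 Hox genes. The share of coding genes was not computed without flanks. The rabbit list is the smaller of the pair, and no count between lists was corrected for depth.

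In the second round no Hox gene had a peak in HDAC3 shRNA embryos, and Scr, Antp, abd-A and Abd-B had one in w1118 embryos. The share of coding genes with a peak was 0.301% in the HDAC3 shRNA list and 14.4% in the second w1118 list, and for long genes 0.59% and 29.8%. Absence from the HDAC3 shRNA list was therefore the rule for nearly every coding gene. None of the 6 second-round w1118 Hox peaks was found in the HDAC3 shRNA list (0 of 6, exact interval 0.0 to 45.9%), and over the chromosome arms 15 of 1038 were (1.45%), so 6 peaks are too few to tell the Hox genes from the rest. On arm 3R the HDAC3 shRNA list held 4 peaks, the nearest of them 3.49 Mb from the Antennapedia complex and 8.27 Mb from the bithorax complex. With 1 library per genotype, the knockdown and the library cannot be told apart.

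**Figure D2:**
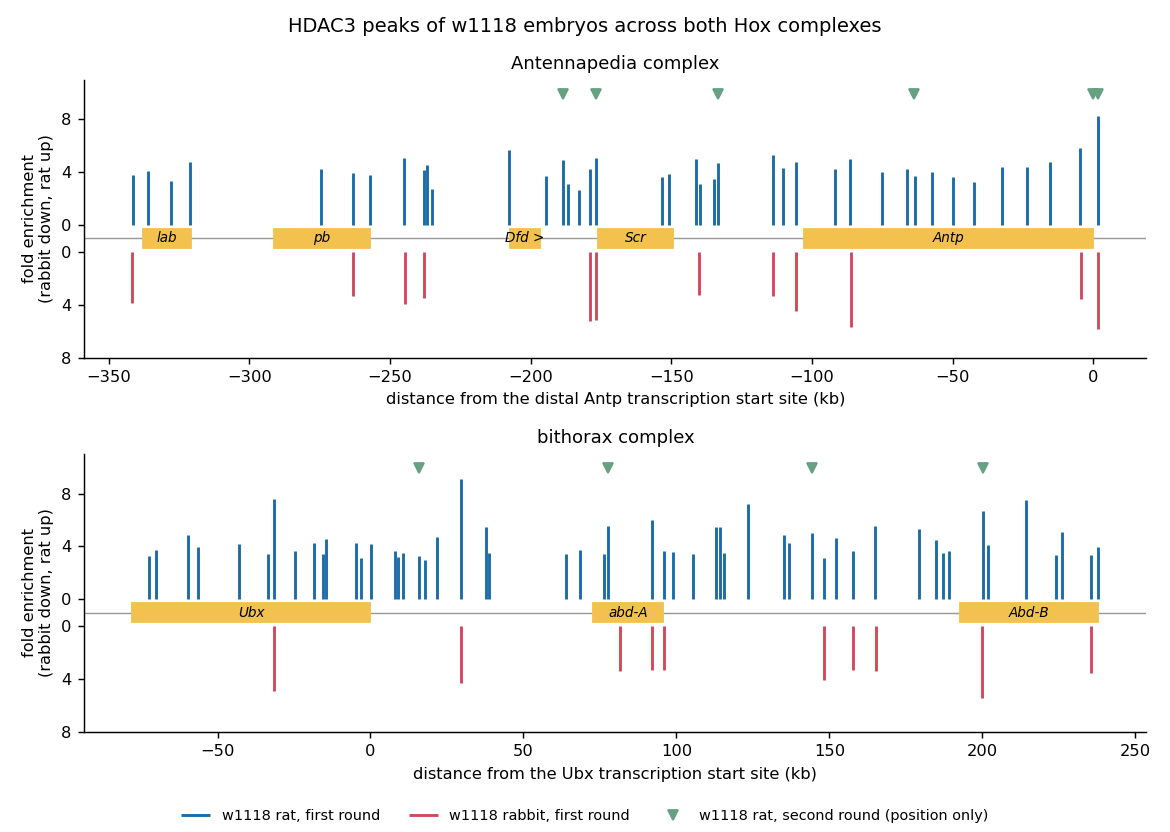
Position and fold enrichment of w1118 HDAC3 peaks along both complexes, with distance in kb from the distal Antp or the Ubx start site on the horizontal axis, rat-antibody peaks of the first round drawn upward, rabbit-antibody peaks downward, and second-round rat peaks marked by triangles with no height. Yellow boxes are the Hox genes, all read leftward except Dfd, and the tallest rat peak at a Hox gene stands just upstream of Antp at 8.28-fold.

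The complexes were compared by the number of peaks per 10 kb of the gene windows. In the first rat list the Antennapedia complex had 27 peaks in 241.9 kb, or 1.12 per 10 kb (exact Poisson interval 0.736 to 1.62), and the bithorax complex had 28 in 175.7 kb, or 1.59 per 10 kb (1.06 to 2.30). The chromosome arms averaged 0.458 per 10 kb, below both intervals. The ratio of the Antennapedia to the bithorax density was 0.70 (exact interval 0.397 to 1.23), an interval that includes equal densities. Over the whole span of each complex, with the stretches between the Hox genes, the densities were 1.15 and 1.63 and the ratio was 0.707 (0.457 to 1.09).

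The rabbit list did not set the complexes apart either. It held 8 peaks in the Antennapedia windows (0.331 per 10 kb, 0.143 to 0.652) and 6 in the bithorax windows (0.342, 0.125 to 0.743), with a ratio of 0.968 (0.295 to 3.39), and the arm average of 0.258 lay within both intervals. In the second w1118 list 4 and 2 peaks gave 0.165 and 0.114 per 10 kb with a ratio of 1.45 (0.208 to 16.1), beside an arm average of 0.0775. A density above that of the arms was therefore seen at both complexes in the first rat list and was not separated from counting error in the full rabbit or second-round list. Among rabbit peaks with −log10 q of at least 5 the Antennapedia windows held 4, or 0.165 per 10 kb (0.0451 to 0.423), with the arm average of 0.0347 below the interval, and 2 of those 4 lie over the 7SL RNA genes beside Scr described with that gene. The bithorax windows held 1 (0.0569, 0.00144 to 0.317). The order of the complexes in the rabbit list turned with the setting, with ratios of 1.12 over the whole span and 2.91 at this cut-off, each with an interval that includes equal densities.

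Introns held the most Hox peaks of the first rat list, followed by promoters. By the start sites (TSSs) of the gene itself, 21 of 55 peaks were within 3000 bp of a TSS (38.2%, exact interval 25.4 to 52.3%), 2 touched an exon, 25 were intronic (45.5%, 32.0 to 59.4%) and 7 were in the flank. Counting TSSs of any gene, 54.5% of Hox peaks were within 3000 bp of one (40.6 to 68.0%), against 72.5% of all peaks on the arms, and 32.7% were within 500 bp (20.7 to 46.7%), against 50.7%. The 2 complexes could not be told apart in this beyond counting error, with promoters taking 10 of 27 Antennapedia peaks and 11 of 28 bithorax peaks, and introns 11 of 27 and 14 of 28.

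Among the rabbit peaks, 5 of 14 were at a Hox promoter, 5 in an intron and 4 in a flank, and the 4 flank peaks were all in the Antennapedia complex. In the second w1118 list 4 of 6 were at a promoter, 1 in an intron and 1 in a flank.

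The 8 genes have 19 annotated TSSs. In the first rat list 12 of them were within 500 bp of a peak, 6 of 9 in the Antennapedia complex and 6 of 10 in the bithorax complex, and 7 lay under a peak, where 24.5% of all coding TSSs were within 500 bp of one. In the rabbit list 3 of 19 were (22.1% of all coding TSSs), 0 of 9 in the Antennapedia complex and 3 of 10 in the bithorax complex. In the second round it was 0 of 19 in HDAC3 shRNA embryos and 2 of 19 in w1118 embryos, against 0.0714% and 4.85% of all coding TSSs. Starts of 1 gene can share a peak, as the pair at the 5′ end of abd-A did. Most Hox start sites thus had a rat peak nearby in the first round. The rabbit count, 3 of 19 with the abd-A pair among them, was near the 22.1% of all coding TSSs.

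**Figure D3:**
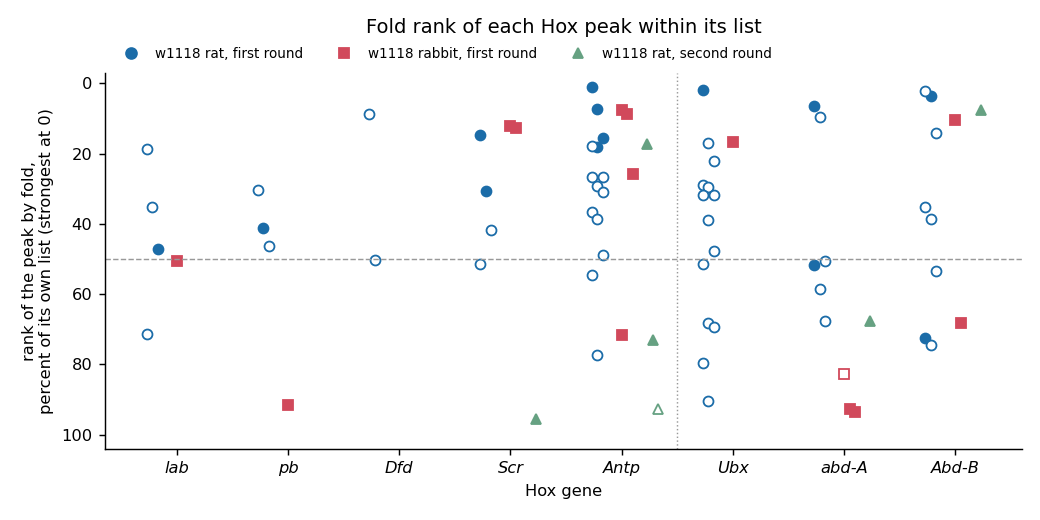
Rank of every Hox peak by fold enrichment, as a percentage of its own list with the strongest peak at the top (0), for each gene and each w1118 list. Filled symbols are peaks also found in the other first-round list (rat or rabbit) or, for second-round peaks, in the first-round rat list, and the dashed line marks the middle of a list. Of the 55 first-round rat peaks, 38 lie above it.

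By fold, the Hox peaks of the first rat list lay above the middle of that list. Their median fold was 4.08, with a range of 3.11 to 8.28, against a median of 3.72 for all 6258 peaks, and the median Hox peak was 35.2% of the way down the list. In the strongest 50% of the list were 38 of the 55, and in the strongest 20% were 15. The medians were 30.8% for the Antennapedia complex and 38.7% for the bithorax complex. The median width was 534 bp for Antennapedia peaks and 356 bp for bithorax peaks, on either side of the 396 bp of the whole list.

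In the rabbit list the Hox peaks were evenly split about the middle, and in the second w1118 list most lay below it. The 14 rabbit Hox peaks had a median fold of 4.18, against 3.86 for the list, and their median was 38.2% of the way down, with 7 of 14 in the strongest 50% and 6 in the strongest 20%. The medians were 19.3% for the 8 Antennapedia and 75.3% for the 6 bithorax peaks, over overlapping ranges of ranks (279 to 3334 and 378 to 3409). Among the 8 Antennapedia peaks are those over the 7SL RNA genes beside Scr, at 12.2% and 12.8%. No median was recomputed without them. Of the 6 Hox peaks of the second w1118 list, 2 were in the strongest 50% and the median was 70.3%, with a median fold of 3.54 against 3.73 for the list. The bithorax peaks of the rabbit list included 3 near its weak end, all at abd-A.

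Antp specifies the second thoracic segment and is the longest of the 8 genes (FBgn0260642, chr3R:6896253-6999228, minus strand, 3 TSSs). Its strongest peak was the strongest at any Hox gene in the first-round lists. At chr3R:7000730-7001185, 1502 bp upstream of the distal TSS and over the noncoding RNA gene lncRNA:CR45899, it had a fold of 8.28 (rank 71 of 6258) with the rat antibody, 5.81 (rank 279 of 3645) with the rabbit antibody, and in the second round 4.44 (rank 196 of 1142) in w1118 embryos, with no peak in HDAC3 shRNA embryos. It was 1 of only 2 sites at a Hox promoter that all 3 w1118 lists held.

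The distal Antp TSS itself (chr3R:6999228) carried a peak only in the second w1118 list, with a fold of 3.19 (rank 1057 of 1142). Inside the gene, an intronic peak at chr3R:6994444-6994919, 4309 bp downstream of that TSS, had a fold of 5.86 (rank 462) with the rat antibody and 3.54 (rank 2608) with the rabbit antibody. Another at chr3R:6912293-6913253, near the 3′ end, where the nearest TSS was that of lncRNA:CR43252, had 4.99 (rank 966) and 5.69 (rank 314). The pair changed order between the antibodies. The fourth shared peak at Antp, in the downstream flank at chr3R:6893160-6893743, lay over lncRNA:CR45559 (4.80, rank 1140, and 4.50, rank 939). A peak 2759 bp upstream of the proximal TSS (chr3R:6935599-6936140, fold 3.74) was found again in the second w1118 list (3.52) and not with the rabbit antibody. Of these, the peaks at chr3R:6912293-6913253 and chr3R:6935599-6936140 also overlap CG46458, a gene model that overlaps Antp. Peaks in the overlap cannot be assigned to either gene.

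Scr, which specifies the labial and first thoracic segments (FBgn0003339, chr3R:6823120-6849981, minus strand), showed a different picture. Its own peaks were a promoter peak over the TSS at 6848505 (chr3R:6848092-6848984, fold 3.91, rank 2608) and a peak 2344 bp downstream of that TSS (fold 3.68, rank 3219), both with the rat antibody alone. From the second of these to the nearest peak beyond the 3′ end of the gene, 22.8 kb held no rat peak, the longest such stretch in any of the 8 windows.

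The 2 peaks of Scr that both antibodies gave lie in its downstream flank over a pair of 7SL RNA genes, which encode the RNA of the signal recognition particle. The copies are 299 bp each and identical in the reference genome (0 mismatches). The peak at chr3R:6822106-6822776 had a fold of 5.06 (rank 921) with the rat antibody, 5.18 (rank 468) with the rabbit antibody and 3.04 (rank 1090) in the second w1118 list. The peak at chr3R:6820168-6820759 had 4.22 (rank 1918) and 5.25 (rank 446) in the first-round lists. By −log10 q these were the strongest Hox-window peaks of the rabbit list (10.4 and 11.7). Short reads that lie wholly inside the identical copies cannot be placed in one of them. How the authors treated such reads is not given in the sources used here. The rat peaks, of 671 and 592 bp, extend beyond the copies, and the sequence outside the copies was not compared. Without the 7SL peaks the rabbit list had a peak at 6 Hox genes, the second w1118 list at 3, and the share of rat Hox peaks found with the rabbit antibody was 20.8%.

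Dfd, which specifies the mandibular and maxillary segments of the head (FBgn0000439, chr3R:6791836-6802428, plus strand), is the shortest Hox gene and the only one without a rabbit peak. The rat peak at chr3R:6791503-6791831 ended 5 bp upstream of its TSS and had a fold of 5.65 (rank 547 of 6258), the highest of the rat peaks at a Hox promoter that the rabbit list lacked. The nearest rabbit peak to this TSS was 28332 bp away and the nearest peak of the second w1118 list 18600 bp away. A second rat peak lay in the downstream flank (chr3R:6804462-6804995, fold 3.71). Both are outside the gene body, so Dfd had no peak in the gene itself.

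lab, the most anterior Hox gene (FBgn0002522, chr3R:6661427-6678590, minus strand), had a rat peak over each of its 2 TSSs. The peak at the upstream TSS (chr3R:6677742-6678778) had a fold of 4.76 (rank 1170) and that at the other TSS (chr3R:6662817-6663570) 4.08 (rank 2201). Neither was found with the rabbit antibody or in the second round. The peak that both antibodies gave (chr3R:6657476-6658136, fold 3.78 with rat and 3.85 with rabbit) lies 5318 bp downstream of the nearer lab TSS, over the start of the neighbouring gene twr.

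pb, needed for the adult mouthparts (FBgn0051481, chr3R:6707800-6742063, minus strand), had the weakest leading peak of the 8 windows in the first rat list. It was the broadest Hox peak, 1919 bp in an intron (chr3R:6723614-6725532, fold 4.23, rank 1901). The peak over the pb TSS had a fold of 3.80 (rank 2891) and was given by the rat antibody alone. The shared peak, intronic at chr3R:6735991-6736282, had folds of 3.92 (rank 2569) with the rat and 3.32 (rank 3334 of 3645) with the rabbit antibody, low in both lists.

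In the bithorax complex, Ubx specifies the third thoracic and first abdominal segments (FBgn0003944, chr3R:16656623-16734426, minus strand). Of its 14 rat peaks 12 were intronic, and 1 stood out. The peak at chr3R:16702768-16703209, 31217 bp downstream of the Ubx TSS and 16918 bp from the nearest TSS, that of asRNA:PS4, had a fold of 7.59 (rank 121 of 6258) with the rat antibody, and as the only Ubx peak of the rabbit list it had 4.92 (rank 613 of 3645). The next Ubx peak by fold had 4.88 (rank 1065). With 10 overlapping GAGAG matches over the whole peak, it was second in that count only to another intronic Ubx peak (chr3R:16715708-16715932), which had 11 and a fold of 4.29. At the Ubx TSS the rat peak began 44 bp upstream (chr3R:16734470-16734715) with a fold of 4.19 (rank 1989), and neither the rabbit antibody nor the second round gave a peak there.

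abd-A, which specifies the middle abdominal segments (FBgn0000014, chr3R:16807214-16830049, minus strand), had 3 rat peaks near its 5′ end. The strongest, at chr3R:16826162-16826680, 1425 bp downstream of a TSS, had a fold of 6.03 (rank 394) with the rat antibody and 3.31 (rank 3374 of 3645) with the rabbit antibody. The peak 67 bp upstream of the outermost TSS had 3.68 (rank 3228) and 3.30 (rank 3409). Both shared peaks were thus at the weak end of the rabbit list. An intronic rat peak near the 3′ end (chr3R:16811795-16812261, fold 5.57, rank 591), nearest to the TSS of lncRNA:TS16, was found again in the second w1118 list (3.56, rank 771) and not with the rabbit antibody. The single rabbit peak at any Hox gene that the rat list lacked was also here, in an intron (chr3R:16815845-16816118, fold 3.41, rank 3009).

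Abd-B specifies the posterior abdominal segments and has the most TSSs of the 8 genes, 6 (FBgn0000015, chr3R:16927212-16972236, minus strand). The peak over the TSS nearest its 3′ end (chr3R:16934198-16934865) had a fold of 6.71 (rank 226) with the rat antibody and 5.46 (rank 378) with the rabbit antibody, and in the second round 5.05 (rank 88 of 1142) in w1118 embryos, with no peak in HDAC3 shRNA embryos. It was the strongest Hox peak of the second w1118 list. The other site shared by the antibodies, 971 bp upstream of another TSS (chr3R:16969545-16970354), was weak in both, with folds of 3.35 and 3.59.

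Abd-B also had the strongest Hox peak that a single antibody gave. This intronic rat peak (chr3R:16948625-16948850), 3057 bp from the TSS of lncRNA:CR46267, had a fold of 7.53 (rank 132 of 6258), held 3 GAGAG and 5 GCCAT matches in 226 bp, and had the highest GC content of the 55 (60.2%). At the TSS at 16960281, a rat peak 102 bp upstream had a fold of 5.10 (rank 880), and a weaker one lay over the outermost TSS (3.99, rank 2414).

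**Figure D4:**
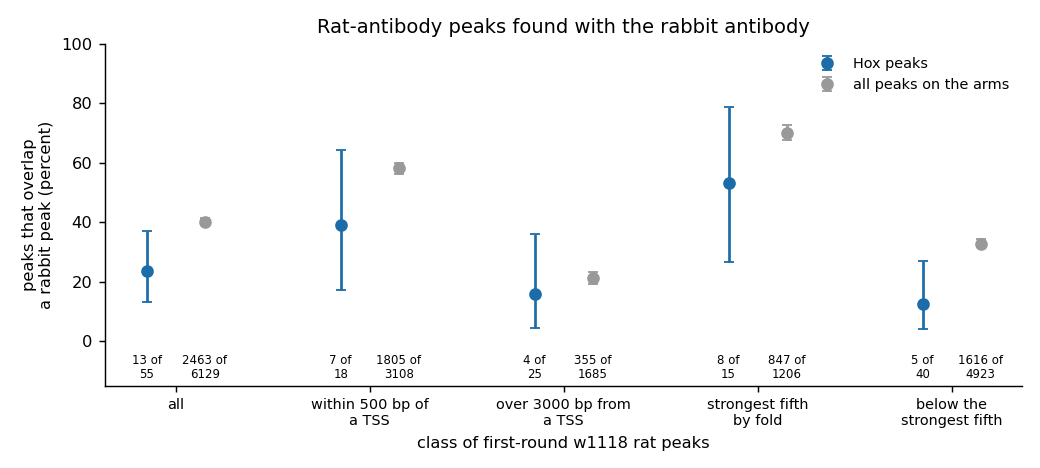
Percentage of first-round w1118 rat peaks that overlap a rabbit peak by at least 1 bp, for Hox peaks (blue) and all peaks on the chromosome arms (grey), over all peaks and within classes of TSS distance and fold. Points are percentages, bars are exact 95% intervals and the numbers below give the counts. The Hox percentage is below that of the arms in every class, by more than its interval over all peaks and among those below the strongest 20% by fold.

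The rabbit antibody gave a smaller share of the rat peaks at Hox genes than of the rat peaks over the arms, with no test of the difference between them. The share was 13 of 55 (23.6%, exact interval 13.2 to 37.0%) at Hox genes and 2463 of 6129 (40.2%) on the arms. It was 8 of 27 (29.6%, 13.8 to 50.2%) in the Antennapedia and 5 of 28 (17.9%, 6.06 to 36.9%) in the bithorax complex, with overlapping intervals. Read from the other list, 13 of 14 rabbit Hox peaks (92.9%, 66.1 to 99.8%) were found with the rat antibody, against 71.0% of rabbit peaks on the arms, which lies within that interval.

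Distance from TSSs and fold both move with the overlap. Over 3000 bp from any TSS, 4 of 25 Hox peaks (16.0%, 4.54 to 36.1%) and 21.1% of peaks on the arms were found with the rabbit antibody, and within 500 bp of a TSS 7 of 18 (38.9%, 17.3 to 64.3%) and 58.1%. Within each of these classes the interval of the Hox peaks includes the value of the arms. In the strongest 20% by fold, 8 of 15 Hox peaks (53.3%, 26.6 to 78.7%) and 70.2% on the arms were shared, and below it 5 of 40 (12.5%, 4.19 to 26.8%) and 32.8%, outside the interval of the Hox peaks. Shared Hox peaks were the stronger ones, with a median fold of 4.99 against 3.99 for the 42 that were not shared.

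Between the w1118 rat lists of both rounds, 5 of the 6 second-round Hox peaks were found in the first-round list (83.3%, 35.9 to 99.6%), against 91.9% over the arms, and 5 of the 55 first-round Hox peaks in the second-round list (9.09%, 3.02 to 20.0%), against 16.3%. The sites in all 3 w1118 lists were those upstream of Antp, over the 3′-most Abd-B TSS and over a 7SL RNA gene beside Scr.

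**Figure D5:**
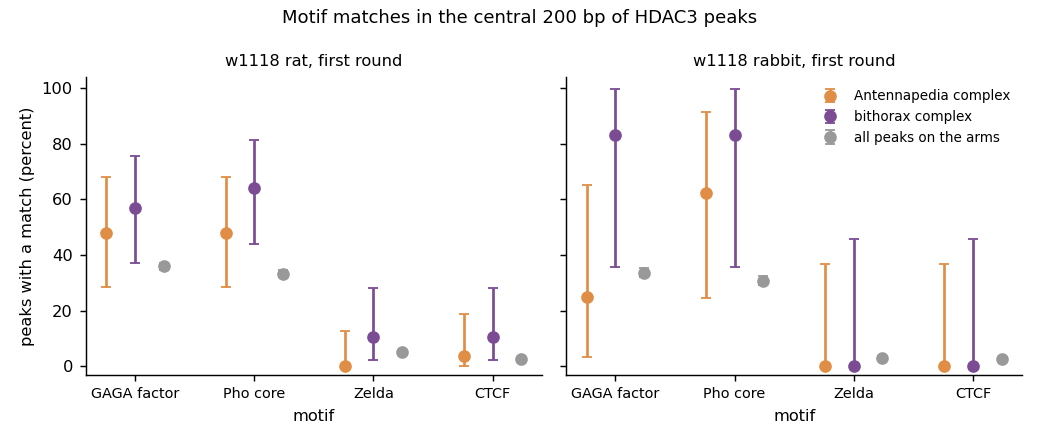
Percentage of peaks with at least 1 motif match on either strand in the 200 bp around the peak centre, for Antennapedia complex peaks, bithorax complex peaks and all peaks on the chromosome arms, in the first-round rat and rabbit lists of w1118 embryos. Points are percentages and bars exact 95% intervals. In the rat list GCCAT is at 64.3% of bithorax and 33.3% of all peaks.

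Motif matches were counted over whole peaks and, since the widths of peaks differ, in stretches of equal length. In the 200 bp around the centre, GCCAT, the Pho core, was present in 31 of 55 rat Hox peaks (56.4%, exact interval 42.3 to 69.7%), against 33.3% of peaks on the arms. GAGAG was present in 29 of 55 (52.7%, 38.8 to 66.3%), against 36.0%. Both background values lie below the interval of the Hox peaks. Over whole peaks this held for GCCAT (81.8%, 69.1 to 90.9%, against 59.4%) and was lost for GAGAG, whose share on the arms, 59.3%, lies within the interval of the Hox peaks (69.1%, 55.2 to 80.9%). In the central stretches GCCAT was present in 13 of 27 Antennapedia peaks (48.1%, 28.7 to 68.1%) and 18 of 28 bithorax peaks (64.3%, 44.1 to 81.4%), and GAGAG in 48.1% and 57.1%, so the intervals of the complexes overlap widely.

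The motifs of Zelda, which opens chromatin in the early embryo, and of the insulator protein CTCF were rare. CAGGTAG was present in 3 of 55 central stretches (5.45%, against 5.24% on the arms), all 3 in the bithorax complex, and AGNNGGCGC in 4 (7.27%, 2.02 to 17.6%, against 2.66%). Over whole peaks CAGGTAG and AGNNGGCGC were each at 12.7% of Hox peaks (5.27 to 24.5%), against 11.6% and 6.77% on the arms. In neither measure did the interval of the Hox peaks leave out the value of the arms for these motifs. A match is a description of the letters and not a bound site. Matches of the same motif could overlap, and each overlapping match was then counted separately.

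In the central 200 bp of the 14 rabbit Hox peaks, GCCAT was present in 10 (71.4%, 41.9 to 91.6%), against 30.8% of rabbit peaks on the arms, and GAGAG in 7 (50%, 23.0 to 77.0%), against 33.6%. GCCAT was in 5 of 8 Antennapedia and 5 of 6 bithorax peaks, and GAGAG in 2 of 8 and 5 of 6. Over whole peaks GCCAT was at 85.7% (57.2 to 98.2%, arms 57.5%) and GAGAG at 57.1% (28.9 to 82.3%, arms 56.7%), and all 6 bithorax peaks held both. The GCCAT interval of the rabbit peaks thus lay above the arms in the central stretches and reached down to them over whole peaks, and the GAGAG interval included the arms in both. In the first rat list the median GC content was 49.6% for the 55 Hox peaks and 48.0% over the arms. It was 52.3% against 46.8% in the rabbit list and 51.4% against 46.8% in the second w1118 list. Whether GC content bears on the motif shares was not tested. No Hox peak was mostly repeat-masked, against 1.78% of first-round rat peaks on the arms.

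The genes listed for comparison were the non-Hox genes of the Antennapedia complex (zen, zen2, bcd, ftz and Ama) and partners of Hox proteins (exd, hth, tsh, tio and disco). All 10 had a rat peak in the first round (58.8% of all coding genes), 8 had a rabbit peak (50.6%), and in the second round 0 had a peak in HDAC3 shRNA (0.301%) and 5 in w1118 embryos (14.4%). These genes do not all have peaks of their own, since the only rat peak of zen2 is the one over the pb TSS and the best rat peak of bcd is that of zen. exd and hth encode the cofactors with which Hox proteins bind DNA, and the pair differed. hth, a long gene, had 15 rat peaks, the best of them with a fold of 9.06 (rank 42), and exd had 1 with a fold of 3.62 (rank 3430). The teashirt family gene tio (fold 9.33, rank 33) also exceeded every Hox peak of the first rat list. In the rabbit list disco (rank 50) and hth (rank 278) came before the best Hox peak (rank 279). In the second w1118 list hth, disco and tio (ranks 21, 29 and 68) came before the best Hox peak (rank 88). The other listed genes did not exceed the best Hox peak in these lists. Within the Antennapedia complex the pair-rule gene ftz had 3 rat peaks, the best at 4.72 (rank 1209). The gene zen, which patterns the dorsal embryo, had 1 over its TSS (5.05, rank 928). Both were below the leading peaks at Antp and Dfd and the 7SL RNA peak that leads the Scr window (5.06, rank 921). The zen peak was above the leading peaks at lab (4.76, rank 1170) and pb (4.23, rank 1901), and the best ftz peak was above that at pb and below that at lab.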

How the data were processed

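HDAC3 CUT&Tag was analysed in whole 2- to 4-h-old embryos, with 1 library for each of 4 combinations of round, genotype and antibody. The authors used Trim Galore! for adaptor removal, Bowtie2 for alignment to dm6, MACS2 for peak calling and ChIPseeker for annotation. Tool versions, options, the use of a control library and the treatment of reads with several positions are not given in the sources used here. The authors deposited 1 peak list per library. The fold enrichment the authors deposited is a ratio of peak signal to local background, and the p-value and q-value were deposited as −log10. The deposited score is a rescaled −log10 q and was not used. The lowest −log10 q was 1.60 in the w1118 lists and 1.61 in the HDAC3 shRNA list. Read numbers are not part of the lists, so depth is unknown. Coverage tracks were not used here.

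Gene models came from Ensembl release 115 (BDGP6.54) without transposable elements, and sequence from the RefSeq copy of genome release 6. A Hox window is the gene body with 5000 bp on either side. Windows of different Hox genes do not overlap. A peak was called promoter when its edge was within 3000 bp of a TSS of the gene, then exon, intron or flank. Lists were compared by overlap of at least 1 bp, and fold was ranked within a list. Shares have exact binomial (Clopper-Pearson) and densities exact Poisson 95% intervals, and the ratio of densities an exact interval conditional on the sum. Peaks are not replicates, and no test used them as such. Analysis was done with Python 3.11.15, numpy 2.4.6, pandas 2.3.3, scipy 1.17.1 and matplotlib 3.10.9, and the functions were tested on simulated data.

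The members, the comparison genes, the motifs and the alternatives were chosen with earlier results of these data known. Named are all 8 members, the fixed comparison genes, genes whose TSS is nearest to a described Hox peak, the strongest peak of each member per list and each peak shared by the rat and rabbit lists. Further peaks in the text, and CG46458, which overlaps Antp, were chosen after their values were seen. Alternatives varied the flank, list stringency and size, promoter window, ranking value, overlap and motif window.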

Additional observations from a re-analysis of the deposited data

How the results depend on the processing

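Of 134 alternative values for 45 results, 102 stayed within the limits set (1.5 times a count, or the interval of a share, density or ratio) and 32 did not. The ratio of Antennapedia to bithorax density changed sides of 1 in the rabbit list, from 0.968 to 1.12 over the whole span, 2.91 with −log10 q of at least 5 and 1.82 at equal list sizes, and in the second w1118 list from 1.45 to 0.759 without flanks, and every interval included equal densities. Cut lists hold fewer peaks by construction. With −log10 q of at least 5, Hox peaks fell to 16 in the first rat list, 5 in the rabbit list (3 genes) and 0 in the second w1118 list (0 genes), and densities in the Antennapedia and bithorax windows to 0.331 and 0.455 in the first rat list (arms 0.113), to 0.165 and 0.0569 in the rabbit list (arms 0.0347), and to 0.0 in both in the second w1118 list. With first-round lists cut to their strongest 1142 peaks, 14 rat and 7 rabbit Hox peaks (4 genes) were left, with densities of 0.289 and 0.398 in the first rat list (arms 0.082) and 0.207 and 0.114 in the rabbit list (arms 0.0789). Without flanks the rabbit list had 8 Hox peaks, at 5 genes. Restricting coding genes to those at least as long as the shortest member moved the share with a peak to 76.1%, 64.9% and 29.8% in the rat, rabbit and second w1118 lists. A promoter window of 1000 or 500 bp gave a promoter share of 21.8% or 20.0% in the first rat list, and TSSs of any gene 54.5%. A peak over the TSS itself was present at 7, 1 and 1 TSSs in the rat, rabbit and second w1118 lists. In the central 200 bp GAGAG was at 52.7% (69.1% over whole peaks) and GCCAT at 56.4% of rat Hox peaks, and AGNNGGCGC at 0.0% in the rabbit and second w1118 lists. Starting from the second w1118 rat list, 50% of Hox peaks were found with the rabbit antibody (3 of 6).

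Leaving out either w1118 rat library changed the number of Hox genes with a rat peak from 8 to between 4 and 8. The 4 is the number without the first-round library. The results without the peaks over the 7SL RNA genes were added after seeing the data. They cover the numbers of Hox genes and Hox peaks and the share of rat peaks found with the rabbit antibody, and stayed within the limits. Densities, ratios, locations, fold ranks and motif shares were not recomputed without these peaks. No paired analysis was possible because each combination of genotype and antibody has 1 library per round and no result comes from a test over libraries. Depth is unknown, so a peak missing from a list cannot be told apart from a list with less signal, and the 6 and 14 Hox peaks of the second w1118 and rabbit lists leave wide intervals.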

Other observations

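Between the Hox windows the first-round rat list held 13 further peaks in the Antennapedia complex and 25 in the bithorax complex, of which 4 and 4 were also found with the rabbit antibody. The strongest peak in either complex was among them, in the noncoding RNA gene lncRNA:bxd upstream of Ubx (chr3R:16763969-16764360), with a fold of 9.09 (rank 41 of 6258) with the rat and 4.34 (rank 1094 of 3645) with the rabbit antibody. A rat peak inside lncRNA:iab8, between abd-A and Abd-B, had a fold of 7.19 (rank 160) and no rabbit peak. The transcribed region of lncRNA:iab8 and the bxd region are known to hold regulatory elements of abd-A, Abd-B and Ubx. These peaks were chosen after their values were seen. In the 7SL RNA peaks beside Scr, rank by −log10 q (141 and 234 of 6258) was far above rank by fold (921 and 1918), and in the intronic Abd-B peak at chr3R:16948625-16948850 it was lower (374 against 132), so the order of the Hox peaks depends on which value is ranked.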
